A study of Mus musculus with 36 samples.

Results

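The expression of 10 genes whose products T cells use to kill or to attract other cells was followed in CD4+ T cells from mice of 2 mutant lines. They are 3 granzymes (Gzma, Gzmb and Gzmk), the pore-forming protein perforin (Prf1), Fas ligand (Fasl), the granule membrane protein Nkg7, and the chemokine ligands Ccl3, Ccl4, Ccl5 and Xcl1. They were chosen by name, with earlier results of these data known. Counts and medians of the set beside those of all genes are therefore descriptions and no test of the set. All 10 were found among the 56748 genes of the table. RNA-seq was run on 36 libraries, 3 in each of 12 groups. A single library was not used because of its read quality, which leaves 35.

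The groups combine 2 lines, 2 genotypes and 3 conditions. In the HP1a line, HP1a KO mice lack HP1α in all tissues, since a floxed Cbx5 allele was excised with CMV-cre in the germ line, and HP1a WT mice are +/+ littermates. In the HP1g line, HP1g KO mice carry a floxed Cbx3 allele and Cd4-cre, so that HP1γ is lost from cells that have passed through a CD4-expressing stage, and HP1g WT mice are littermates with the floxed allele and no cre. Mice of both lines were of a mixed 129/Sv and C57BL/6 background. Naive cells were CD4+CD62L+CD44low T cells of the spleen. Tconv were conventional CD4+ T cells that had been injected as naive cells into irradiated C57BL/6 hosts, together with C57BL/6 and semi-allogeneic B6D2F1 bone marrow depleted of T and NK cells, and were sorted 3 weeks later for the T cell receptor chain Vβ6, which recognises a superantigen of the allogeneic donor. Tconv with Treg came from hosts that had also received expanded WT regulatory T cells of Foxp3-Thy1.1 mice, and the sort excluded Thy1.1+ cells. HP1g KO Tconv with Treg has 2 libraries in use. Whether the 2 lines were studied in the same experiments is not stated, and the ratio of Tconv to Treg may differ between them, so that line, experiment and ratio cannot be told apart.

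Killer lymphocytes store granzymes, which are serine proteases, in granules together with perforin. When the granules are released, perforin opens the membrane of the target cell and lets granzymes enter. Fas ligand kills by a separate route, through the receptor Fas on the target. CCL3, CCL4 and CCL5 attract T cells and myeloid cells, CCL3 and CCL5 in part through CCR1, whereas XCL1 attracts dendritic cells with XCR1. This set is best known from CD8 T cells and NK cells, but CD4 T cells can acquire parts of it, mainly under the T-box factors T-bet (Tbx21) and Eomesodermin (Eomes).

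On GRCm39, the build of the table, Gzma (chr13:113230355-113237524) and Gzmk (chr13:113308142-113362442) are neighbours on the minus strand. Gzmb (chr14:56496295-56499717) belongs to the granzyme cluster of chromosome 14. Ccl5 (chr11:83416602-83425942), Ccl3 (chr11:83538670-83540191) and Ccl4 (chr11:83553383-83555509) lie together on chromosome 11. Prf1 (chr10:61133546-61140461), Nkg7 (chr7:43086497-43087678), Fasl (chr1:161608258-161616075) and Xcl1 (chr1:164759213-164763096) complete the set, and all 10 are annotated as protein-coding. In the GENCODE annotation, which gave these positions, a gene on the opposite strand overlaps Gzmk (Gm59720 and Esm1), Ccl3 (Gm53692), Ccl5 (Gm73713) and Xcl1 (Gm20743). The library kit does not mark strand, so the reads of such pairs cannot be told apart where they overlap. The counts were made with an Ensembl annotation, in which these overlaps were not checked.

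The 250 bases before the start of 5 genes are shown, because these genes followed different courses below. Prf1 was already present in naive cells, Gzmb and Gzma appeared in Tconv, and Gzmk and Ccl3 were highest in some groups of Tconv with Treg. The sequences are from RefSeq on GRCm38.p6, each read 5′ to 3′ along the gene's strand, with the last base next to the start. RefSeq and GENCODE, the source of the spans above, can place a start differently. For Gzmk the RefSeq start, and so the printed window, lies inside the span given above. RefSeq promoters were matched for 8 of the 10 genes, not for Ccl4 and Ccl5. Capitals mark matches, on either strand, to 4 short motifs known from T cell genes, which do not overlap each other here: a T-box motif (GGTGTGA), a Runx motif (TGTGGT), an NFAT motif (GGAAAA) and an AP-1 motif (TGANTCA).
Prf1, chr10:61297586-61297835, plus strand: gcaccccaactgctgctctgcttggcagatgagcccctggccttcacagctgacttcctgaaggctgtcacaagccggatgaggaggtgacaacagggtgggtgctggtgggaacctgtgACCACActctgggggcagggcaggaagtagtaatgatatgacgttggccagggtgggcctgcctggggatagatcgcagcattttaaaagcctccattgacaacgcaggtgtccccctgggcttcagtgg
Gzmb, chr14:56262335-56262584, minus strand: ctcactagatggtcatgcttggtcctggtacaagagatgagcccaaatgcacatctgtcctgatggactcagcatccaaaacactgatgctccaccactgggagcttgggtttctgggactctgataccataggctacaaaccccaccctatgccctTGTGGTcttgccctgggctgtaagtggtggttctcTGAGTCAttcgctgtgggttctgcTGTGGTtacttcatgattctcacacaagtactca
Gzma, chr13:113100982-113101231, minus strand: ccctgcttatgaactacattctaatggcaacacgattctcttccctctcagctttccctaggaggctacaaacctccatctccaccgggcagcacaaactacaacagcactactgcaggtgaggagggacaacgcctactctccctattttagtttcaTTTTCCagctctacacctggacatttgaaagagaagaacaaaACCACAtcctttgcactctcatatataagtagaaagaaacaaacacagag
Gzmk, chr13:113180966-113181215, minus strand: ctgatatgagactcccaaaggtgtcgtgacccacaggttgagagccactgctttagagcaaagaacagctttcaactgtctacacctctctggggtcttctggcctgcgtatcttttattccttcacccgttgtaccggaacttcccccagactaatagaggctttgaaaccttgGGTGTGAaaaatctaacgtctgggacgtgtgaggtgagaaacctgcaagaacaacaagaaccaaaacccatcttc
Ccl3, chr11:83649379-83649628, minus strand: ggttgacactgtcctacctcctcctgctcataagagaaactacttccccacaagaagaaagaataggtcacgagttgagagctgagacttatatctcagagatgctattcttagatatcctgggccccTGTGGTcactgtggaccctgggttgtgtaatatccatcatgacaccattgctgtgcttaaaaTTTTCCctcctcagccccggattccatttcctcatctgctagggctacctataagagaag

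The Runx motif occurs in 14% of 32536 promoter windows of that length, the NFAT motif in 20.4%, the AP-1 motif in 6.73% and the T-box motif in 3.33%. Gzmb holds 2 Runx matches and 1 AP-1 match, and Gzma 1 Runx and 1 NFAT match. Ccl3 also holds 1 Runx and 1 NFAT match, and Prf1 1 Runx match. Gzmk differs in holding 1 T-box match and none of the other 3 motifs. Of the 3 promoters not printed, Nkg7 and Xcl1 each hold 1 T-box and 1 Runx match, and Fasl holds 1 NFAT match. A match describes the letters only, and no match says nothing about binding of the factor.

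The libraries in use held 37029477 to 63042165 estimated counts, with 20158 to 23340 genes detected. The unit of level is CPM, the count scaled by the TMM-normalised library size, and the floor of 3 counts corresponds to between 0.0476 and 0.081 CPM depending on the library. Such a floor covers counting error only. Nothing states whether replicates are separate hosts, so that p-values measure the spread between these libraries. The targeted genes followed the labels: Cbx5 was at 9.2 to 19.7 CPM in HP1a KO and 18.5 to 61.8 CPM in HP1a WT libraries, and Cbx3 at 60.5 to 80.8 CPM in HP1g KO and 79.1 to 199 CPM in HP1g WT libraries, without overlap within any condition. The summed level of 8 CD4 T cell markers was between 6282 and 10430 CPM in all groups. Fewer cells that express a gene and less RNA per cell cannot be told apart in bulk libraries such as these.

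Naive cells held little of this set apart from Prf1 and Fasl. Prf1 was at 34.2 to 88.9 CPM in the 12 naive libraries, with a median of 53.7, and Fasl at 14.7 to 57.0 CPM with a median of 33.7. Nkg7 reached at most 3.02 CPM and Gzma at most 1.04 CPM there. The other 6 genes were at or near the floor, with medians from 0.0952 CPM for Ccl3 to 0.263 CPM for Ccl5 and no more than 40 counts in a library. Per kilobase of exon, the scale on which genes can be compared, the naive medians were 20.3 for Prf1 and 17.3 for Fasl, against 1.32 for Nkg7, the next in order. The ranges of Prf1 and Fasl overlap.

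In Tconv the order was different. Nkg7 was at 639 to 1350 CPM and Ccl5 at 353 to 1491 CPM in the 12 libraries, and their medians per kilobase, 1140 and 1006, were the highest of the 10 genes. Gzmb followed with 227 per kilobase (140 to 650 CPM), then Gzma with 149 (48.7 to 337 CPM) and Fasl with 73.1 (97.7 to 301 CPM). Ccl4 had a median of 35.9 per kilobase (4.38 to 121 CPM) and Gzmk of 30.4 (10.6 to 154 CPM). Xcl1 (13.5 per kilobase), Prf1 (11.3) and Ccl3 (7.71) came last. The ranges of neighbours in this order overlap, so that only broad steps, such as Nkg7 and Ccl5 above Prf1, exceed the spread between libraries.

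**Figure D1:**
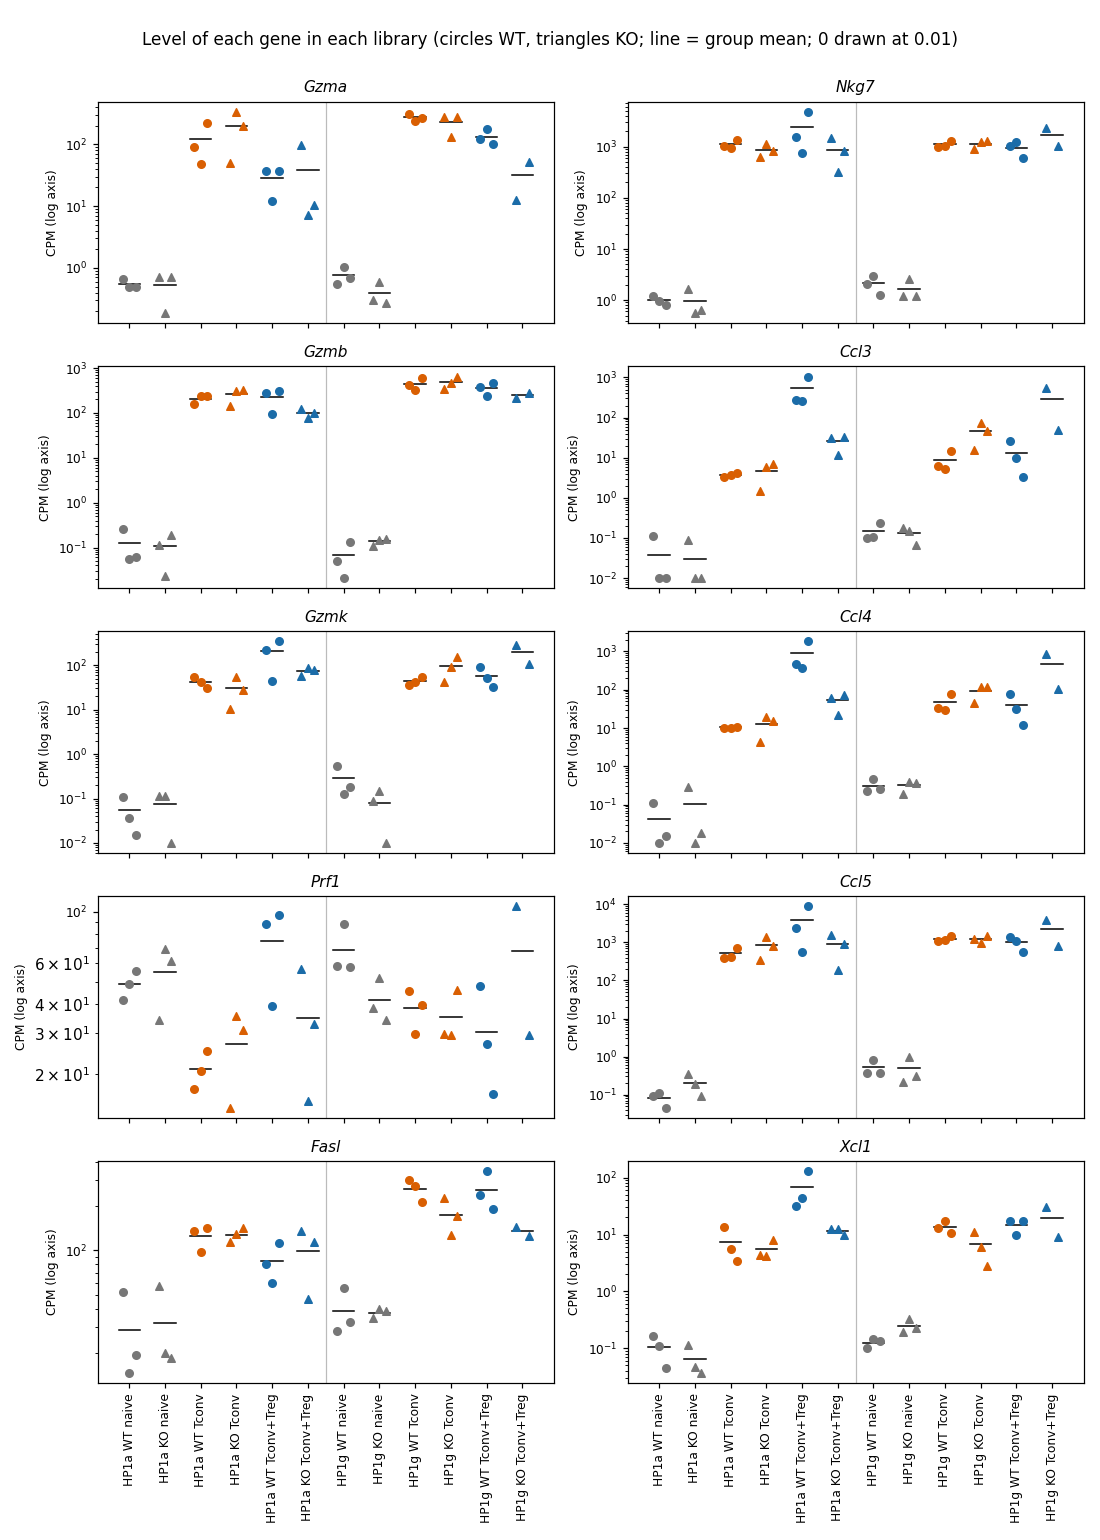
Level of each of the 10 genes (CPM, log axis) in each library of the 12 groups, with HP1a groups to the left of the grey line and HP1g groups to the right, naive in grey, Tconv in orange and Tconv with Treg in blue. Circles are WT and triangles KO libraries, and black lines are group means. Of the genes shown, Prf1 is the one whose naive libraries (34.2 to 88.9 CPM) lie as high as the Tconv libraries (14.4 to 46.0 CPM).

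The comparison of Tconv with naive cells asks how these genes differ after transfer into irradiated, grafted hosts. The allogeneic response, the proliferation that lymphopenic hosts induce and the sort for Vβ6 cannot be told apart in it. 9 of the 10 genes were called higher in Tconv in each of the 4 line and genotype combinations. Called here means an absolute log2 fold change above 1 together with an adjusted p under 0.05 in the quasi-likelihood test of edgeR, with Benjamini-Hochberg adjustment over all genes tested. Of all genes tested, 23.1% were called in HP1a WT, 19.7% in HP1a KO, 23.5% in HP1g WT and 23.1% in HP1g KO. The median log2 fold change of the 10 genes was 7.85, 7.87, 7.24 and 8.82 in these 4 comparisons, against −0.04, −0.01, −0.03 and 0.02 for all genes.

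Large rises were those of Ccl5 (log2 fold change 11.19 to 12.60 over the 4 comparisons), Gzmb (10.74 to 12.69) and Nkg7 (9.03 to 10.15), with edgeR adjusted p from 6.44e-08 to 0.000132. Gzma rose by 7.78 to 9.23 (adjusted p 3.32e-06 to 0.000991) and Gzmk by 7.29 to 10.23 (adjusted p 2.23e-06 to 0.00079). Among the other chemokine ligands, Ccl4 rose by 6.97 to 8.29 (adjusted p 3.04e-05 to 0.00332), Ccl3 by 5.91 to 8.42 (adjusted p 0.00025 to 0.00204) and Xcl1 by 4.77 to 6.70 (adjusted p 9.97e-06 to 0.000304). Fasl, present beforehand, rose by only 2.01 to 2.76 (adjusted p 6.37e-05 to 0.0196). Every Tconv library lay above every naive library of its comparison for these 9 genes, but the share of all genes without overlap was not counted. The 10 myeloid markers summed to 5.08 to 12.01 CPM in naive groups, to 6.77 to 7.51 CPM in HP1a WT Tconv and to 13.1 to 325 CPM in the other Tconv groups. Of 4 myeloid markers tested in HP1a WT, Fcer1g (3.01) was called higher and Itgam (−1.46) lower. The part of myeloid cells in the rises was not tested. For Gzmb, Gzmk, Ccl3, Ccl4, Ccl5 and Xcl1 the naive counts were so few (0 to 40 per library) that the size of the fold change depends on the prior count of the fit. Fasl in HP1a WT had an adjusted p as high as 0.0764 when 1 library was left out, without Tconv replicate 3 or naive replicate 3.

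Perforin took the other direction. Prf1 was at 41.9, 49.2 and 55.7 CPM in naive HP1a WT libraries and at 17.4, 20.6 and 25.3 CPM in HP1a WT Tconv, without overlap. This was a fall of 1.21 on the log2 scale (SE 0.16, edgeR adjusted p = 0.000444), and the call held whichever of the 6 libraries was dropped. The estimates were −1.01 ± 0.39 (SE) in HP1a KO (adjusted p = 0.0847), −0.84 ± 0.24 in HP1g WT (adjusted p = 0.0308, under the threshold on the fold change) and −0.22 ± 0.21 in HP1g KO (adjusted p = 0.442), none of them called by edgeR. Whether these 4 estimates differ was not tested.

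Other genes of the pathways were read from lists. Of 17 granule machinery genes tested of 23 listed, 9 or 10 were called higher in Tconv in each comparison and 0 lower. They include Cst7 (cystatin F, an inhibitor of granule proteases) with a log2 fold change of 2.68 in HP1a WT, Ctsw (cathepsin W) with 3.23, Serpinb9 (an inhibitor of granzyme B) with 2.24 and Gzmm with 2.91. Of 13 transcription factors of cytotoxic cells, 7 or 8 were called higher, among them Tbx21 (10.23 in HP1a WT), Zeb2 (6.99) and Eomes (1.85), and Tcf7, a factor of naive and memory cells, was called lower in all 4 (−1.59 in HP1a WT). Among receptors of the chemokine ligands, Ccr1 and Ccr3 were called higher in each comparison, with Ccr1 at 8.57 in HP1a WT. Of 7 other death ligands and receptors, Tnf, Tnfsf10 and Tnfsf14 were called higher in each, whereas Tnfrsf10b was called lower in all but HP1a KO, and Ltb and Lta lower in HP1g WT.

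The comparison of Tconv with Treg against Tconv alone asks what the presence of regulatory T cells did. In HP1a WT cells 4 of the 10 genes were called, all higher with Treg, where 5.96% of all genes were called. The median log2 fold change of the 10 was 2.09, against 0.03 for all genes. No member was called by edgeR in the other 3 comparisons, where 0.44% (HP1a KO), 0.0126% (HP1g WT) and 0% (HP1g KO) of all genes were called. At an unadjusted p under 0.05 there were 4, 1 and 4 of the 10 genes, against 15.8%, 6.89% and 7.62% of all genes. DESeq2's Wald test with the same thresholds called 7, 3, 1 and 1 of the 10 in HP1a WT, HP1a KO, HP1g WT and HP1g KO, with 9.26%, 2.5%, 0.333% and 1.62% of all genes.

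In HP1a WT cells, Ccl3 and Ccl4 had the largest estimates of the 10 genes. Ccl3 was at 3.33, 3.77 and 4.13 CPM in Tconv alone and at 282, 258 and 1059 CPM with Treg, the highest mean of any group. Its log2 fold change was 7.20 ± 0.69 (SE, edgeR adjusted p = 0.00198). Ccl4 went from 10.2, 10.1 and 10.7 CPM to 464, 375 and 1834 CPM, a log2 fold change of 6.48 ± 0.72 (adjusted p = 0.00348). The 3 libraries without Treg are close together for both genes, and replicate 3 with Treg stands well above the other two. Both genes stayed called whichever of the 6 libraries was dropped, with log2 fold changes of 6.20 to 7.51 for Ccl3 and 5.37 to 6.83 for Ccl4. In HP1a KO cells the same genes were at 1.48, 5.78 and 6.90 CPM (Ccl3) and at 4.38, 19.5 and 14.9 CPM (Ccl4) without Treg, and at 31.6, 11.9 and 33.6 CPM and 62.2, 21.6 and 74.5 CPM with Treg. The groups do not overlap there either, but edgeR did not call them (2.47 ± 0.65, adjusted p = 0.155, and 2.05 ± 0.66, adjusted p = 0.224), and DESeq2 called Ccl3 alone (2.46, adjusted p = 0.0216). For none of the comparisons with Treg was the share of all genes without overlap counted.

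Xcl1 was at 13.4, 5.57 and 3.45 CPM in HP1a WT Tconv and at 31.9, 43.9 and 131 CPM with Treg, a log2 fold change of 3.25 ± 0.70 (edgeR adjusted p = 0.0332). Prf1 rose from 17.4, 20.6 and 25.3 CPM to 88.7, 39.5 and 96.7 CPM (1.87 ± 0.35, adjusted p = 0.0197). The naive HP1a WT libraries were at 41.9 to 55.7 CPM, so that replicate 2 with Treg lay just below them and the others above. Cells with Treg were not tested against naive cells. Neither call is as firm as those of Ccl3 and Ccl4. Dropping any HP1a WT Tconv library ended the call of Xcl1, in 3 of 6 fits (highest adjusted p = 0.145), and dropping any of these libraries or replicate 1 with Treg ended that of Prf1, in 4 of 6 fits (highest adjusted p = 0.11). In HP1a KO cells Xcl1 went from 4.41, 4.22 and 8.04 CPM to 12.7, 12.3 and 9.70 CPM, without overlap (1.07 ± 0.29, edgeR adjusted p = 0.144; DESeq2 adjusted p = 0.00689).

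Ccl5 and Nkg7 were high in all grafted cells and spread widely with Treg. In HP1a WT cells with Treg, Ccl5 was at 2343, 560 and 8944 CPM and Nkg7 at 1563, 755 and 4848 CPM, so that replicate 3 held many times the level of replicate 2. Ccl5 was called by DESeq2 (2.99, adjusted p = 0.023) and not by edgeR (3.0 ± 0.89, adjusted p = 0.0946), and without replicate 2 with Treg edgeR called it (adjusted p = 0.0223). Nkg7 was called by neither tool. Fasl and Gzmb were called higher with Treg by neither tool in any comparison. Gzmb was lower in HP1a KO cells with Treg, at 122, 77.7 and 98.2 CPM against 140, 308 and 331 CPM without, a difference called by DESeq2 (−1.37, adjusted p = 0.0106) and not by edgeR (−1.36 ± 0.35, adjusted p = 0.15).

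**Figure D2:**
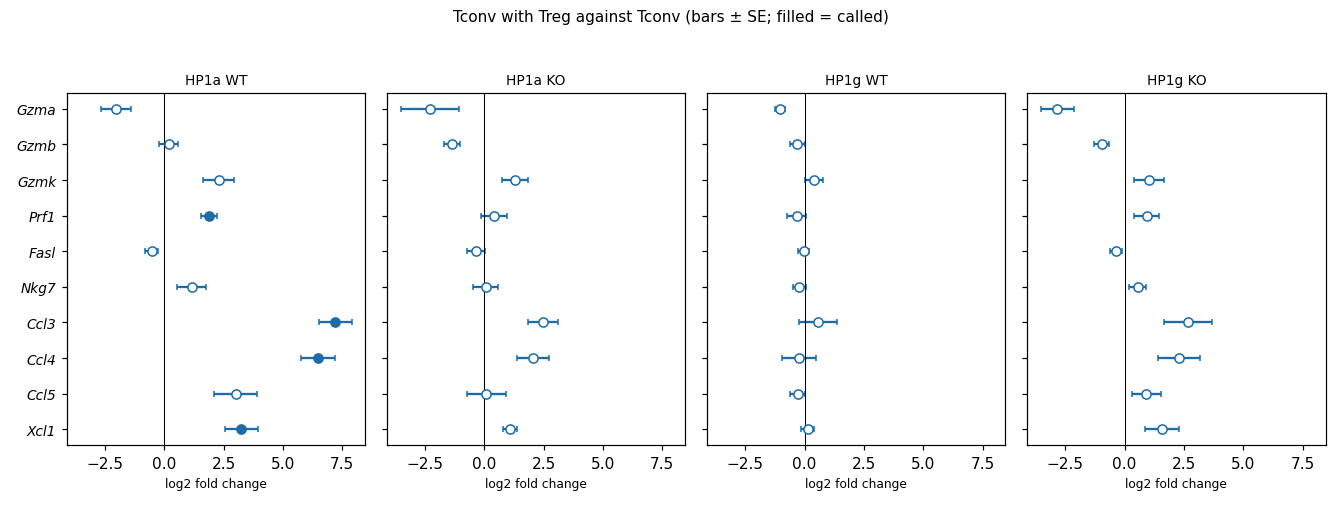
Log2 fold change (horizontal axis) of each gene in Tconv with Treg against Tconv, in 4 panels by line and genotype, from edgeR. Bars are ± 1 SE and filled points mark genes called. The 4 filled points are Prf1 (1.87), Ccl3 (7.20), Ccl4 (6.48) and Xcl1 (3.25) in HP1a WT.

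Gzma and Gzmk, neighbours in the genome, had Treg estimates on opposite sides of 0. Gzma had negative estimates with Treg in each of the 4 comparisons, with log2 fold changes of −2.04, −2.31, −1.05 and −2.83, and Gzmk positive ones, with 2.30, 1.29, 0.39 and 1.02. None was called by edgeR (lowest adjusted p 0.103 for Gzma and 0.0838 for Gzmk), so these are estimates and not calls. Without replicate 2 with Treg, edgeR called Gzmk in HP1a WT (adjusted p = 0.00733). By DESeq2, Gzma was called lower in HP1a WT (−2.05, adjusted p = 0.00323), HP1g WT (−1.05, adjusted p = 0.000576) and HP1g KO (−2.84, adjusted p = 0.000179), and Gzmk higher in HP1a WT (2.29, adjusted p = 0.000883). In HP1a WT cells Gzma was at 92.0, 48.7 and 223 CPM without and at 36.3, 11.9 and 37.3 CPM with Treg, and Gzmk at 55.5, 42.0 and 31.1 CPM without and at 223, 44.7 and 346 CPM with Treg.

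The ratio of Gzmk to Gzma within a library is a description of this pair, and a change in either gene can move it. It was below 1 in all 12 libraries of Tconv alone, between 0.116 and 0.864. With Treg it was 6.14, 3.75 and 9.27 in HP1a WT, 0.586, 11.7 and 7.77 in HP1a KO, 22.6 and 2.07 in HP1g KO, and 0.745, 0.299 and 0.320 in HP1g WT. Thus the ratio, in CPM and not corrected for length, was above 1 in 7 of the 11 libraries with Treg, and the exceptions were the 3 HP1g WT libraries and replicate 1 of HP1a KO. Over the 23 grafted libraries, which share the sort and the transfer, the levels of the 2 genes had a Pearson correlation of −0.349, whereas Gzma and Gzmb had 0.730 and Gzmk and Ccl3 0.838. These correlations describe log2(CPM + 1) values that differ between groups.

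**Figure D3:**
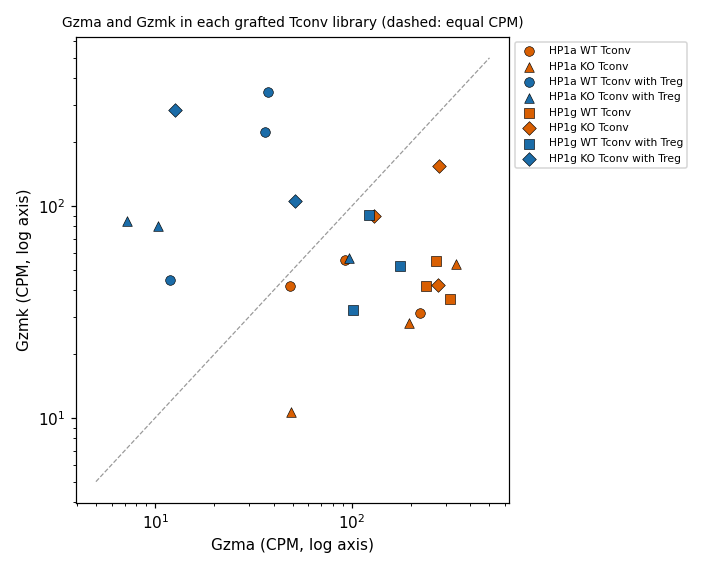
Gzma against Gzmk (CPM, both axes log) in each of the 23 grafted libraries, Tconv in orange and Tconv with Treg in blue, with the line and genotype given by the shape. All 12 Tconv libraries lie below the dashed line of equal CPM, and 7 of the 11 libraries with Treg lie above it.

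The factors and receptors of the pathway were also examined in HP1a WT cells with Treg. Of the 13 transcription factors, Eomes (3.52 ± 0.45, edgeR adjusted p = 0.00558) and Bcl6 (2.57 ± 0.43, adjusted p = 0.0143) were called higher, and Tbx21 (−1.71 ± 0.24, adjusted p = 0.0076), Bhlhe40 (−1.10) and Hopx (−1.40) lower. The T-box factors therefore moved in opposite directions in these cells: Eomes was at 81.3 to 264 CPM with and 11.01 to 16.0 CPM without Treg, Tbx21 at 50.7 to 91.0 CPM with and 198 to 265 CPM without. Of 17 granule machinery genes tested, Cst7 (1.30) and Lamp2 (1.02) were called higher and Ctsw (−1.55) lower. Of the receptors, Ccr1 was called lower (−2.94), at 0.905 to 1.53 CPM with and 9.22 to 10.1 CPM without Treg. Fas, the receptor of Fas ligand, was called higher (1.19) and Tnfsf14 lower (−1.02) among 7 death ligands and receptors. Of the other chemokine ligands, Cxcl10 was called higher in HP1a WT (1.86) and in HP1a KO (1.13), and no other listed gene of these 5 lists was called in HP1a KO, HP1g WT or HP1g KO.

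Markers of other cells were read beside these results. The summed level of 7 CD8 T or NK cell markers was 23.5 to 24.8 CPM in HP1a WT Tconv and 109 to 277 CPM with Treg, and this list holds Eomes, which made up most of it. Of the defining markers, Cd8a was at no more than 0.324 CPM, Ncr1 at no more than 0.0259 CPM and Klra4 at 0 in all 3 libraries, Cd8b1 was at 5.92 to 7.41 CPM against 4.89 to 8.02 CPM without Treg, and Klrb1c at 5.27 to 21.2 CPM against 2.58 to 5.74 CPM. The 10 myeloid markers summed to 19.2 to 45.2 CPM in HP1a WT with Treg, above the 6.77 to 7.51 CPM of Tconv alone, with Adgre1 (3.18), Cd14 (3.87) and Fcer1g (2.04) called higher of 6 tested. They summed to 174 to 539 CPM in HP1a KO with Treg. The part of myeloid cells in these results was not tested. The 6 Treg markers summed to 715 to 946 CPM in HP1a WT with Treg against 388 to 453 CPM without, where Ctla4 (2.42) and Ikzf2 (3.82) were called higher and Il1rl1 (−2.83) lower, and Foxp3 was at 13.3 to 68.7 CPM against 4.46 to 12.1 CPM. The part of Treg that passed the sort was not tested. The 6 B cell markers summed to no more than 63.6 CPM in any group. The 5 erythroid markers ran from 1.28 to 4213 CPM over the groups, and were at 1.60 to 29.1 CPM in HP1a WT with Treg and at 74.4 to 443 CPM in HP1a KO with Treg.

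The comparison of KO with WT asks whether loss of HP1α or HP1γ changed these genes. By edgeR no member was called in any of the 6 comparisons, and calls were rare among all genes: 0%, 0.103% and 0.123% in HP1a naive cells, Tconv and Tconv with Treg, and 0.00669%, 0.0437% and 0% in the same conditions of HP1g. Neither Cbx5 nor Cbx3, the targeted genes, was called by edgeR in any of the 6. A missing call therefore does not show that a gene was unchanged. In naive cells only 4 (HP1a) and 6 (HP1g) of the 10 genes passed the filter on low counts, and 0 and 1 of them had an unadjusted p under 0.05, against 1.87% and 5.78% of all genes. In Tconv this held for 0 (HP1a) and 2 (HP1g) of the 10 genes, against 8.53% and 8.42% of all genes, and in Tconv with Treg for 5 and 5, against 12.1% and 11.8%. DESeq2 called no member in naive cells or Tconv. With Treg it called 3 of the 10 in HP1a and 2 of the 10 in HP1g, where it called 3.84% and 3.57% of all genes.

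In HP1a cells with Treg the levels of Ccl3, Ccl4 and Xcl1 lay lower in KO than in WT libraries. Ccl3 was at 31.6, 11.9 and 33.6 CPM in KO and 282, 258 and 1059 CPM in WT libraries, without overlap, a log2 fold change of −4.40 ± 0.71 that edgeR did not call (adjusted p = 0.0773) and DESeq2 called (adjusted p = 1.85e-11). Ccl4 differed by −4.11 ± 0.77 (edgeR adjusted p = 0.0928, DESeq2 adjusted p = 0.000287) and Xcl1 by −2.60 ± 0.53 (edgeR adjusted p = 0.112, DESeq2 adjusted p = 1.84e-05), both without overlap. How many of all genes show no overlap here was not counted, so this is description only. The edgeR calls depended on 1 WT library, and without replicate 3, the highest, Ccl3 (adjusted p = 0.0301) and Xcl1 (adjusted p = 0.0286) were called. In a fit of all libraries of the line, which called 3.59% of all genes, all 3 were called. Of the other 7 genes, 5 had negative estimates and Gzma (0.40 ± 0.96) and Fasl (0.20 ± 0.40) positive ones, with groups that overlap, and without KO replicate 1 all 10 estimates were negative. Between these KO and WT libraries the 6 Treg markers (314 to 510 against 715 to 946 CPM) and the CD8 T or NK cell markers (41.1 to 52.3 against 109 to 277 CPM) were lower in KO without overlap, and the myeloid and erythroid sums higher, and their part in the result was not tested. The CD8 T or NK cell list holds Eomes, which made up most of its sum in WT. In HP1a Tconv without Treg the same 3 genes had estimates of 0.35 ± 0.51, 0.33 ± 0.50 and −0.41 ± 0.54, with groups that overlap.

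In HP1g cells with Treg the estimates of Ccl3 and Ccl4 had the opposite sign. Ccl3 was at 536 and 49.6 CPM in the 2 KO libraries and at 25.7, 10.0 and 3.28 CPM in WT, a log2 fold change of 4.49 ± 1.20 (edgeR adjusted p = 0.252, DESeq2 adjusted p = 0.0187). Ccl4 was at 833 and 106 CPM in KO and at 76.7, 31.4 and 12.4 CPM in WT (3.55 ± 1.03, edgeR adjusted p = 0.274, DESeq2 adjusted p = 0.0676). The KO libraries lie far apart from each other and above all WT libraries. Replicate 1, the higher of them, also had the higher sums of 4 marker lists, with 1202 against 608 CPM for Treg, 242 against 55.4 CPM for CD8 T or NK cell (a list that holds Eomes), 222 against 81.7 CPM for myeloid and 4213 against 71.2 CPM for erythroid markers, and their part in the result was not tested. Gzma took the other direction, at 12.6 and 51.3 CPM in KO and 122, 175 and 101 CPM in WT (−2.06 ± 0.61, edgeR adjusted p = 0.283, DESeq2 adjusted p = 0.00326), whereas Gzmk was at 284 and 106 CPM against 90.7, 52.3 and 32.2 CPM (1.74 ± 0.55, edgeR adjusted p = 0.303). Without KO replicate 2, Gzma was called by edgeR (−3.42, adjusted p = 0.039). Without KO replicate 1 the estimates shrank to 1.92 for Ccl3, 1.39 for Ccl4, 0.85 for Gzmk and −1.37 for Gzma, none called, and the median of the 10 genes went from 0.98 to −0.21. In Tconv without Treg, Ccl3 was at 16.0, 73.9 and 47.5 CPM in HP1g KO and 6.18, 5.35 and 15.0 CPM in WT, without overlap (2.39 ± 0.68, edgeR adjusted p = 0.396), and no other member had groups without overlap and an absolute log2 fold change above 1. The share of all genes without overlap was not counted in either HP1g comparison. With so few libraries, groups can lie apart by chance.

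**Figure D4:**
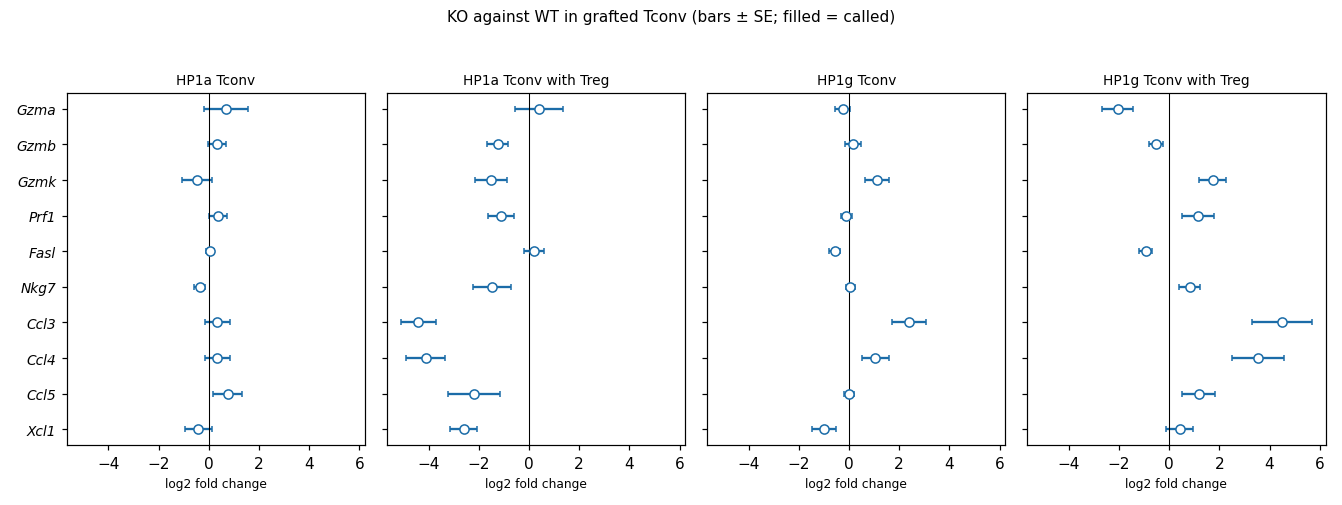
Log2 fold change (horizontal axis) of each gene in KO against WT cells, in 4 panels for grafted Tconv without and with Treg in each line, from edgeR. Bars are ± 1 SE, and no point is filled because no gene was called. Ccl3 is at −4.40 in HP1a and at 4.49 in HP1g Tconv with Treg.

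The differences of effects were tested directly. The interaction of genotype and Treg within the HP1a line gave −4.73 ± 0.92 for Ccl3 (edgeR adjusted p = 0.078) and −4.42 ± 0.96 for Ccl4 (adjusted p = 0.111). No member was called, where 0.139% of all genes were, and 6 of the 10 genes had an unadjusted p under 0.05, against 9.74% of all genes. DESeq2 called both Ccl3 (adjusted p = 0.000233) and Ccl4 (adjusted p = 0.00182), with 1.84% of all genes. In the HP1g line no member was called by either tool in this test, edgeR called 0% of all genes, and 1 of the 10 genes had an unadjusted p under 0.05, against 3.74% of all genes. The interaction in HP1g was 2.10 for Ccl3 and 2.50 for Ccl4. Approximate 95% intervals, from a normal quantile and an SE derived from the F statistic, ran from −0.67 to 4.87 and from 0.08 to 4.92. They are too narrow for so few libraries and are no test of a difference from 0.

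The KO effect with Treg differed between the lines for Ccl3 (8.88 ± 1.5, HP1g minus HP1a, edgeR adjusted p = 0.0173) and Ccl4 (7.64 ± 1.42, adjusted p = 0.0236). These are the 2 members called in this test, where 2.72% of all genes were called, and DESeq2 called 4 of the 10 (7.47% of all genes), adding Xcl1 (3.02, adjusted p = 0.0041) and Gzmk (3.23, adjusted p = 0.0413). The test rests on 2 HP1g KO libraries. With the third library put back, no member was called (Ccl3 8.40, adjusted p = 0.0684), and of 11 fits with a single library dropped, 4 no longer called Ccl3 and 5 no longer called Ccl4. Those without HP1a KO replicate 1 or 3, HP1g KO replicate 1 or HP1g WT replicate 2 lost both, and that without HP1g WT replicate 3 lost Ccl4 alone (all with Treg).

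The Treg effect in WT cells also differed between the lines. It was smaller in HP1g WT by 6.63 ± 1.08 for Ccl3 (edgeR adjusted p = 0.0129) and by 6.70 ± 1.05 for Ccl4 (adjusted p = 0.0111), the 2 members called where 1.56% of all genes were called. DESeq2 called 5 of the 10 (4.54% of all genes), with Xcl1 (−3.13, adjusted p = 0.00138), Ccl5 (−3.31, adjusted p = 0.035) and Prf1 (−2.22, adjusted p = 0.00264) in addition. In HP1g WT the levels of Ccl3 were 6.18, 5.35 and 15.0 CPM without and 25.7, 10.0 and 3.28 CPM with Treg, so that the groups overlap. Ccl4 stayed called whichever of the 12 libraries was dropped. Ccl3 was lost in 2, without HP1a WT Tconv replicate 3 and without HP1g WT replicate 2 with Treg (highest adjusted p = 0.0537). Both tests between lines share the HP1a WT and HP1g WT libraries with Treg, so they are not separate evidence.

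The genes most like each member were those with the highest Pearson correlation of log2(CPM + 1) over the 35 libraries, among the 9399 genes whose mean level reached 5 CPM. The libraries share the contrast of naive with grafted cells, which most of these correlations follow. Nkg7 and Ccl5 were most like each other (r = 0.995), followed for both by Plscr1 and Ifng, the gene of interferon-γ. Ccl3 and Ccl4 were likewise most like each other (r = 0.979), and next came Lag3 (0.972) and Il10 (0.966) for Ccl3, and Alcam (0.973) and Havcr2 (0.971), which encodes TIM-3, for Ccl4. Gzmb had Slamf7 (0.992) and Il2rb (0.991) among its nearest, and Gzma was most like Klrg1 (0.979), Tmem37 and Zeb2 and Gzmk like Farp1 (0.982), Jdp2 and Ctnnbip1. Fasl was most like Cdkn1a (0.962), Ccrl2 and Metrnl, and Xcl1 like Rnf128 (0.941), Mafg and Jdp2. Prf1 had no close match, with Chchd10 (0.760), Snx9 (0.733) and Dnajc12 (0.730) as the nearest. The genes named for the 3 granzymes have none in common.

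The ratio of Ccl4 to Ccl3 within a library was not constant, although the 2 genes varied together. It was 5.19 to 5.59 in HP1g WT Tconv and 2.59 to 3.07 in HP1a WT Tconv, and it was 1.45 to 1.73 in HP1a WT with Treg, where both were highest. In HP1g WT with Treg it was 2.98 to 3.77, and in HP1g KO with Treg 1.55 and 2.14. The ratio, in CPM and not corrected for length, was above 1 in each of the 23 grafted libraries.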

How the data were processed

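CD4+ T cells were profiled by RNA-seq (SMART-seq v4 PLUS, paired-end). In the nf-core/rnaseq pipeline, the authors ran Trim Galore (Cutadapt) for trimming, STAR for alignment to GRCm39 and Salmon for quantification. Estimated counts per gene were deposited, neither scaled nor filtered, of which 82.9% are whole. They were rounded here. As in the study, replicate 3 of the HP1g KO group with Treg was not used. CPM used TMM over the 35 libraries.

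Groups were compared with the quasi-likelihood test of edgeR 4.0.16 in R 4.3.3 (TMM, filterByExpr, robust), using only their own libraries, adjusted by Benjamini-Hochberg over all genes tested, checked on simulated data. Calls needed an absolute log2 fold change above 1 and an adjusted p under 0.05. The 14 comparisons of 2 groups and 4 tests of a difference of effects were repeated with DESeq2 1.42.0, which the study used, RLE size factors, no filter, no fold threshold, all libraries of the line, a replicate block, the left-out library and each library left out.

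Members and lists were chosen with earlier results of these data known. All 10 genes are named, with a fold change where edgeR or DESeq2 called them, the adjusted p was under 0.05, or groups did not overlap with an absolute log2 fold change above 1. Other fold changes in the text are given as context. Equally numbered libraries were taken as paired where each correlation of their deviations exceeded 0.1 over 3 or more pairs, which held for KO against WT in HP1a naive cells (0.287 to 0.654) and HP1g Tconv (0.112 to 0.431). Vamp7 was not found in the table. A receptor gene of the lists is not reported here. ATAC-seq was not analysed here.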

Additional observations from a re-analysis of the deposited data

Results flagged for a closer look

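The KO effect and the Treg effect each differed between the 2 lines, by a test of the difference itself, for Ccl3 and Ccl4. The KO effect in Tconv with Treg differed by 8.88 (log2, HP1g minus HP1a) for Ccl3 and by 7.64 for Ccl4, and the Treg effect in WT cells by −6.63 for Ccl3 and by −6.70 for Ccl4 (edgeR quasi-likelihood test, adjusted p = 0.0173, 0.0236, 0.0129 and 0.0111). Both tests share the WT libraries with Treg. Neither gene was called in either test without the filter on low counts, nor in that of KO effects with the left-out library. Some fits with a single library dropped also lost calls. Line, experiment and Treg ratio cannot be told apart. For the HP1γ experiment, the paper states that Treg did not effectively repress the WT response at the ratio used.

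The library not used in the comparisons is the third replicate from HP1g KO hosts given Treg. It held 36961911 counts and 18623 detected genes, fewer than any library in use. Its Ccl3 level, 35.3 CPM, was above that of each HP1g WT library with Treg (highest 25.7 CPM) and below both HP1g KO libraries in use. That place rests on the TMM scaling of a library left out for its quality. In unscaled counts Ccl3 was at 551 there, within the 184 to 1265 counts of the HP1g WT libraries with Treg. No other gene of the 10 lay above all HP1g WT libraries there. Its Gzmb was at 43.2 CPM and its Ccl5 at 111 CPM.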

How the results depend on the processing

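No called value changed sign under any alternative, and RLE size factors and no fold threshold kept every count of called members within 1.5 times. DESeq2 moved the counts from 0 to 3 in HP1a and 2 in HP1g (KO against WT), from 4 to 7 in HP1a WT and from 0 to 3, 1 and 1 in HP1a KO, HP1g WT and HP1g KO (Treg effect), to 2 in the HP1a interaction, and to 4 and 5 in the KO and Treg differences between lines. A fit of all libraries called 3 and 3 members in KO against WT with Treg (HP1a, HP1g; 3.59% and 1.67% of all genes), 2 in the HP1a interaction (0.688%) and 6 in the difference of KO effects (8.38%). Both differences between lines fell to 0 without the filter on low counts, and that of KO effects to 0 with the left-out library. The cause was not tested.

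Leaving out 1 library gave 0 to 2 members in KO against WT with Treg in HP1a and 0 to 1 in HP1g, 2 to 6 in the HP1a WT Treg effect (Ccl3 and Ccl4 in each fit), 0 to 1 in that of HP1a KO and in the HP1a interaction, 0 to 3 in the difference of KO effects and 1 to 5 in that of Treg effects. The replicate block changed no call where the numbers pair the libraries. Elsewhere, in fits whose libraries share only a number, the block left 4 members in the HP1a WT Treg effect, with Gzma called (adjusted p = 0.0114) and Xcl1 not (0.0692), and called Prf1 lower in HP1a KO Tconv against naive cells (adjusted p = 0.00115, 10 members). These counts are not set against the share of all genes called in each fit, so they show no change particular to the members. Depth limits the naive levels of 6 genes, at 0 to 40 counts a library.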
